A study of Mus musculus with 5 samples.

Results

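CBX2 is the chromodomain subunit of Polycomb Repressive Complex 1 (PRC1), which compacts chromatin and binds nucleosomes that carry trimethylated lysine 27 of histone H3 (H3K27me3). That mark is written by Polycomb Repressive Complex 2 (PRC2), and it gathers at CpG islands, the CpG-rich stretches that overlap many gene starts. In differentiated cells these islands include the starts of transcription factor genes that specify other lineages. The peaks described here are the narrower CBX2 domains at such starts, in a ChIP-Seq experiment on mouse embryonic fibroblasts (MEFs). They were chosen by 2 properties that can be read from the peak lists, a width under 15000 bp and the presence of at least 1 protein-coding gene whose annotated 5′ end falls inside the peak. By this rule 81 of 289 Control peaks (28.0%), 85 of 255 EZHIP peaks (33.3%) and 121 of 327 K27M peaks (37.0%) were members, or 287 of 871 peaks in all.

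The MEFs stably expressed human EZHIP (hEZHIP) or the histone mutant H3.3K27M from a lentivirus. The Control cells were the parental line, which had been made from 1 embryo and carried loxP sites in EED, a core PRC2 gene, without deletion. EZHIP is an intrinsically disordered protein that posterior fossa ependymomas express, the K27M mutant is an oncohistone of diffuse midline gliomas, and both inhibit PRC2. Each group had 1 library and 1 list of broad peaks, so differences between lists had no replicate check and carry no p-value. Libraries from the K27R and EEDnull cells were not used here. The files held no read counts or peak heights and the depth of the libraries is unknown, so the part of depth in the number and width of peaks was not tested. Few starts of any kind lay in a CBX2 peak of any width (0.903% of protein-coding starts in Control, 0.894% in EZHIP and 1.19% in K27M), so lists of marker genes check the cell type only weakly. None of 13 fibroblast and mesenchyme markers was in a peak of any list. In Control, 3 of 6 neural, 0 of 4 muscle, 1 of 3 blood, 2 of 5 endoderm and 0 of 4 pluripotent and germ cell markers were.

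The members held 104 gene starts in Control, 109 in EZHIP and 146 in K27M, which was 0.465%, 0.487% and 0.653% of the 22367 annotated protein-coding starts. Across the lists the members held 220 different starts that belonged to 216 gene symbols. Most members held a single start (67 of 81, 69 of 85 and 102 of 121 in the same order), and the largest number in 1 peak was 5, in the Control peak over Hist1h2bf, Hist1h2ad, Hist1h3d, Gm17658 and Hist1h4d. Because the width was part of the rule, widths within the members are given as a description. The median width was 7400 bp (95% interval 6000 to 9800) in Control, 6400 bp (5600 to 8200) in EZHIP and 7200 bp (6600 to 8800) in K27M. The narrowest members were the 1200 bp Control peaks at Ier3 and Hist1h1e, the 2200 bp EZHIP peak at Peli2 and the 2200 bp K27M peak at Pfdn4. Just inside the limit were the peaks of Sall3 and Tbx20 (14800 bp each) in Control, Dmrt3 (14600 bp) in EZHIP, and Sox21 and Foxl2 (14600 bp each) in K27M. Just outside were Evx1 (15200 bp) in Control, Foxd1 and Mnx1 (15000 bp each) in EZHIP, and Barx1 and Dmbx1 (15400 bp each) in K27M. These all encode transcription factors.

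**Figure D1:**
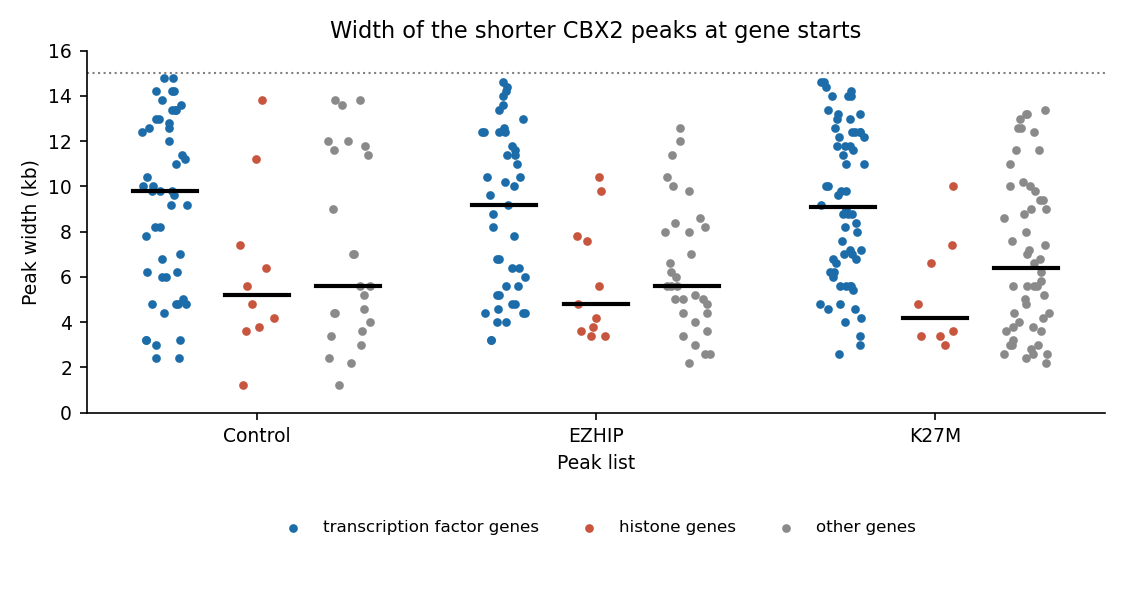
Width in kb (linear axis) of each member peak, 1 point per peak, by list and by the genes whose starts it held. A peak with starts of more than 1 group is drawn in each. Black bars are medians and the dotted line is the 15 kb limit. Peaks at transcription factor genes had medians of 9800, 9200 and 9100 bp, and peaks at histone genes 5200, 4800 and 4200 bp, in Control, EZHIP and K27M.

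The bases upstream of several annotated starts in members are given below. Each sequence below is the 200 bp that end next to the annotated start, 5′ to 3′ in the direction of the gene, read from NCBIM37 (mm9). The first set shows starts of 2 kinds, and the CCAAT box and the TATA box are in capitals. Hist1h2bn (chr13:21845792-21845991 (+)) and Hist1h1b (chr13:21872495-21872694 (-)) are replication-dependent histone genes held by all lists. Junb (chr8:87502618-87502817 (-)), Ier3 (chr17:35958429-35958628 (+)) and Ddit3 (chr10:126727630-126727829 (+)) are stress and growth factor response genes held by Control alone.
Hist1h2bn: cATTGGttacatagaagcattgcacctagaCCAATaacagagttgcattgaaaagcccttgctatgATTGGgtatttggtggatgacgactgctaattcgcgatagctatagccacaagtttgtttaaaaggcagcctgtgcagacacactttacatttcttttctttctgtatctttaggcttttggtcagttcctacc
Hist1h1b: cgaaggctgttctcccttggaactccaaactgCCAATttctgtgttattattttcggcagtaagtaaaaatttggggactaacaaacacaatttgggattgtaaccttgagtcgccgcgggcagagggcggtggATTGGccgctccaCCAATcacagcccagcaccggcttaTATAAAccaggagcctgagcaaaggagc
Junb: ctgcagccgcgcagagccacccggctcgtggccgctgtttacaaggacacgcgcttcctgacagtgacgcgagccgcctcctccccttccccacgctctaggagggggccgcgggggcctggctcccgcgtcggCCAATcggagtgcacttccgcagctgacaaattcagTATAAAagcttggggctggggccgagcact
Ier3: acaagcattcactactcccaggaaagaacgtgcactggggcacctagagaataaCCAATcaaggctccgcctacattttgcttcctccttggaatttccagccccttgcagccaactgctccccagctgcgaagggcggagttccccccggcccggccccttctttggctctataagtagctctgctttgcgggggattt
Ddit3: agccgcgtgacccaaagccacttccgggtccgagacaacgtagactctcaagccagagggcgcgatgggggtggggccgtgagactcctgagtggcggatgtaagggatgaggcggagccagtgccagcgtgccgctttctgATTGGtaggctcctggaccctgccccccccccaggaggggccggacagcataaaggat

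The second set shows transcription factor genes and a transporter gene, with each CpG in capitals, because most of these stretches were dense in CpG. Insm1 (chr2:146047457-146047656 (+)), Pou3f3 (chr1:42753791-42753990 (+)) and Gbx2 (chr1:91829866-91830065 (-)) were held by all lists, Lmx1b (chr2:33496032-33496231 (-)) by EZHIP alone, and Neurog1 (chr13:56353525-56353724 (-)) and Slc32a1 (chr2:158436294-158436493 (+)) by K27M alone. Pou3f3 had 35 CpGs in its 200 bp, Lmx1b 29, Insm1 28, Neurog1 20 and Slc32a1 10. Gbx2 had 2, so a CpG-poor stretch directly upstream of the start also occurred inside a member. In the Lmx1b stretch an ATG is followed by codons without a stop up to the annotated start. The end of that stretch may thus be coding sequence, and its 29 CpGs may not all belong to a promoter.
Insm1: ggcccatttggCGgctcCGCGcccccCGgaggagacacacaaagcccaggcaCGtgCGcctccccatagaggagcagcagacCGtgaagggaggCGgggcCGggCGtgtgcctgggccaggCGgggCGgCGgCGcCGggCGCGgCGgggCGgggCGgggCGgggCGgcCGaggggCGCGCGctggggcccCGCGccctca
Pou3f3: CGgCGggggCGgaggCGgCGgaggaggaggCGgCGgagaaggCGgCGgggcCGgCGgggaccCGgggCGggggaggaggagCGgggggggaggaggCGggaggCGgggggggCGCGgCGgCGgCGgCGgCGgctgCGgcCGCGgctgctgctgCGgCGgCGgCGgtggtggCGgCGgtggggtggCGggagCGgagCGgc
Gbx2: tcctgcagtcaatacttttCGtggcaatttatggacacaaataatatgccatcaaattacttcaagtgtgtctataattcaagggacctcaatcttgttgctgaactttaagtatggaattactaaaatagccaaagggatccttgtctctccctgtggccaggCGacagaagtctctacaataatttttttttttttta
Lmx1b: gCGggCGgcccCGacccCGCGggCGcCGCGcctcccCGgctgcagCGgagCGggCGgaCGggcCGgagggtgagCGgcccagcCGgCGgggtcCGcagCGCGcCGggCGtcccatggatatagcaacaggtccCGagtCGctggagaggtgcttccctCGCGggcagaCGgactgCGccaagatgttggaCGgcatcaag
Neurog1: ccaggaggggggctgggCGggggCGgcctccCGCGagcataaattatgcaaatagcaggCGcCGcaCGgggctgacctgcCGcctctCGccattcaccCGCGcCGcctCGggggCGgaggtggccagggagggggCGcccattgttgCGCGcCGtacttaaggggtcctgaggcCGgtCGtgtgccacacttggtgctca
Slc32a1: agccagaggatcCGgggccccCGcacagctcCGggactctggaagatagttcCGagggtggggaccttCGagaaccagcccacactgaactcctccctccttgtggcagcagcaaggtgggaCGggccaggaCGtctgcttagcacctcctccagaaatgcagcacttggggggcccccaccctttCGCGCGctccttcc

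CpG islands were a property that the rule did not use. An island window, taken as 500 bp with 55% or more G+C and 0.65 or more of the CpGs that its base composition predicts, was present in 92.6% of Control members, 95.3% of EZHIP members and 95% of K27M members. Among peaks under the same width limit that held no start, the shares were 40.9%, 46.6% and 67.0%. Those peaks were narrower, with medians of 4400 bp in Control and 4600 bp in EZHIP, against 7400 and 6400 bp for members. A wider peak offers more windows, and the part of width in the gap was not tested. Among peaks of 15000 bp or more they were 81.7%, 82.7% and 88.3%. Islands are common at gene starts in general. Such a window lay within 1000 bp of 53.2% of all annotated starts and of 87.7% (95% interval 82.6 to 91.8) of the 220 starts in members. For transcription factor genes the 2 values were 72.8% and 89.9%, and for genes of the histone clusters 97% and 100%. Histone cluster starts thus mostly had islands whether or not they lay in a CBX2 peak, and 91.3% of the 23 in no peak of any list had one.

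Genes of transcription factors were the largest class in each list, with 51 of 104 starts in Control (49.0%), 46 of 109 in EZHIP (42.2%) and 66 of 146 in K27M (45.2%). Homeobox genes, whose products pattern the body axis and organs, accounted for 26, 23 and 29 of them. Over all lists 99 of 607 annotated transcription factor starts lay in a member (16.3%), against 0.984% of all protein-coding starts. Within this group, 6 of 14 Nkx, 4 of 12 LIM, 9 of 29 paired-like, 13 of 67 bHLH, 7 of 43 forkhead and 2 of 19 Sox starts lay in a member. Hox genes had none, with 0 of 40 starts in members, and 17 Hox starts in Control, 20 in EZHIP and 17 in K27M lay in peaks of 15000 bp or more. The clustered Hox genes thus lay in broad domains where they lay in a peak at all. The transcription factor group was set by symbol patterns and is not complete. Among others it left out Fev, Rfx4 and Skor1, which encode transcriptional regulators, and Egr1, Junb and Ddit3, which were counted as immediate early or stress genes.

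Canonical histone genes, which encode the bulk histones made in S phase, were the second class. They had 24 of 104 starts in Control (23.1%), 25 of 109 in EZHIP (22.9%) and 19 of 146 in K27M (13.0%). Of the 67 annotated starts of the histone clusters, 33 lay in a member of some list (49.3%). None of the 12 starts of other histone genes, such as the variants H2afz and H3f3b, did. Histone genes of all 5 kinds were held. In Control members there were 2 H1, 7 H2A, 6 H2B, 4 H3 and 5 H4 starts, and in K27M members 3, 5, 4, 3 and 4. Immediate early genes, whose transcription rises within minutes of a stimulus, were counted together with stress genes such as Ddit3. This class had 6 starts in Control, 2 in EZHIP and 3 in K27M. Signalling genes had 0, 1 and 4 of 366 annotated starts, and genes of G-protein-coupled receptors, ion channels, cadherins and transporters 0, 0 and 6 of 912. Over all lists these were 1.37% and 0.658% of each group, near the 0.984% of all protein-coding starts. Starts of ion channels (0 of 243), cadherins and protocadherins (0 of 67), Polycomb subunits (0 of 40), cell-cycle inhibitors (0 of 10), ribosomal proteins (0 of 148) and olfactory and vomeronasal receptors (0 of 1441) were in no member of any list. These classes too were set by symbol patterns and need not be complete. At 0.984% of all starts, a list of 148 or fewer starts with none in a member is close to the background.

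The start lay between 25% and 75% of the way across the peak in 54 of 104 cases in Control, 54 of 109 in EZHIP and 94 of 146 in K27M. Of the rest, more lay upstream of that stretch (32, 36 and 33) than downstream (18, 19 and 19). On a scale from 0 at the upstream edge to 1 at the downstream edge of the peak, in the direction of the gene, the median start lay at 0.35 in Control, 0.348 in EZHIP and 0.418 in K27M. Transcription factor starts had more of the peak downstream than upstream in 38 of 51 cases in Control, 37 of 46 in EZHIP and 45 of 66 in K27M. Their peaks reached a median of 2746 bp upstream and 5084 bp downstream in Control, 2252 and 4864 bp in EZHIP, and 3659 and 4947 bp in K27M. Histone starts were placed the other way, at medians of 0.714, 0.769 and 0.715, and only 8 of 24, 8 of 25 and 4 of 19 had more of the peak downstream. Several histone starts share each of these peaks, so their positions are not independent of one another. The start nearest to the centre of its peak was that of Barhl1, a homeobox gene, 12.5 bp from the centre of its 8800 bp K27M peak.

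**Figure D2:**
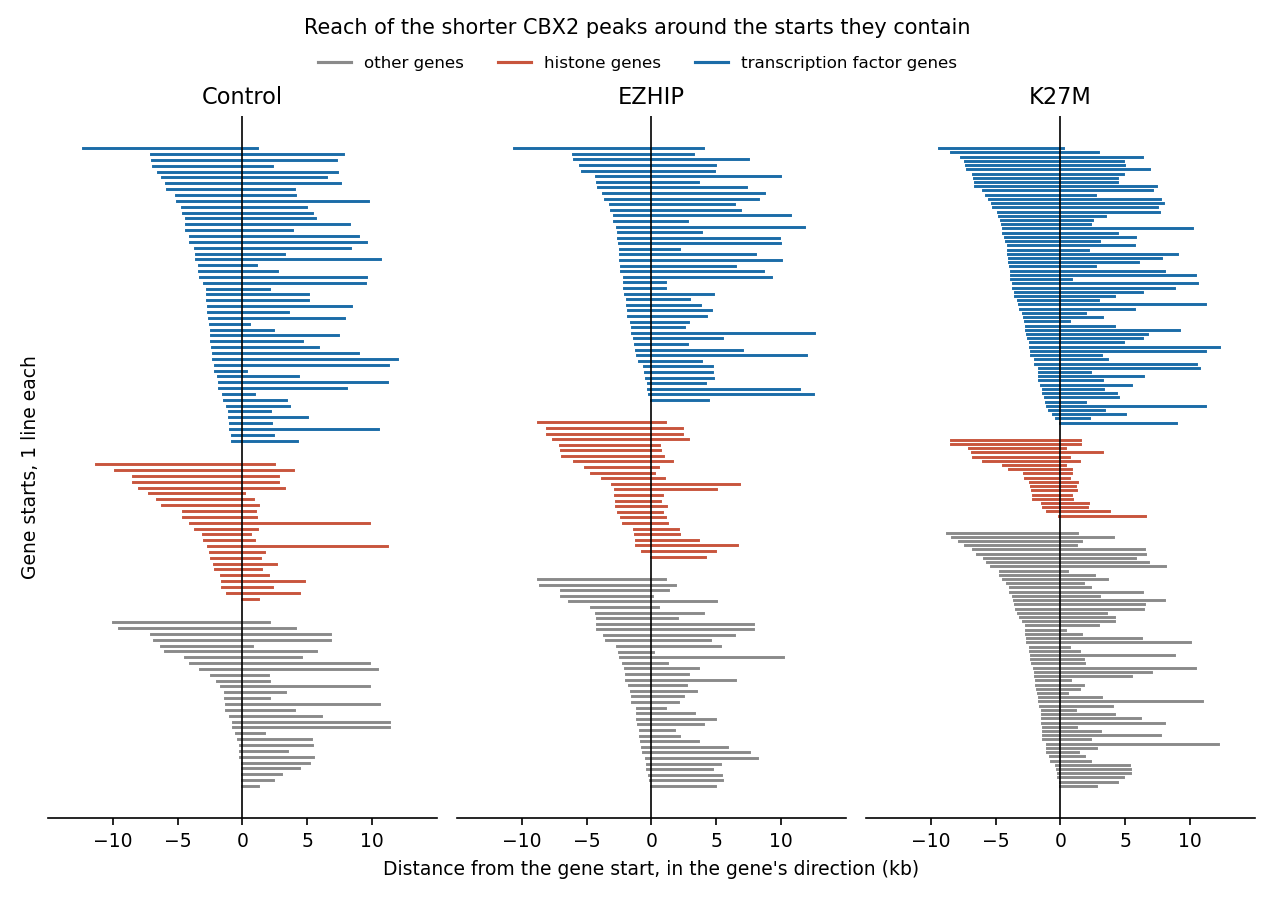
Reach of each member peak around each start it held, 1 horizontal line per start, in kb upstream (negative) and downstream (positive) in the gene's direction, by list and gene group. Lines of transcription factor genes extended mostly to the right of the start and lines of histone genes mostly to the left.

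Immediate early and stress genes were arranged differently from both, with the start at the upstream edge and the peak over the body of the gene. Ier3, an apoptosis regulator, began 28 bp inside its Control peak, and the 1200 bp peak covered 94.5% of the gene. Ddit3, a factor of the integrated stress response, began 29 bp inside its Control peak of 2400 bp. Ier2 began 49 bp inside its peak in Control (3000 bp) and in K27M (2800 bp), and Cyr61, which encodes a matricellular protein, 51 bp inside a 4400 bp peak in the same lists. Egr1, an early zinc finger factor, was the 1 gene of this class held by all lists, in peaks of 5200, 5000 and 5600 bp in Control, EZHIP and K27M, with its start 60, 60 and 260 bp from the upstream edge. Junb, an AP-1 subunit, began 183 bp inside its 3600 bp Control peak. Actb, the cytoplasmic actin gene, was not in this class but had the same shape, with its start 167 bp inside peaks of 5600 bp in Control and 5000 bp in K27M. Zfp36l2, an RNA-binding protein gene held by EZHIP alone, began 313 bp inside a 5000 bp peak. Of the 6 immediate early and stress starts in Control, 1 was in an EZHIP peak and 3 were in a K27M peak. Over all Control member starts these shares were 70.2% and 82.7%, and 6 starts are too few for a comparison. Expression was not measured in these files.

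Most member starts of Control recurred in the other lists. An EZHIP peak of any width held 73 of 104 (70.2%, 95% interval 60.4 to 78.8) and a K27M peak held 86 of 104 (82.7%, 74.0 to 89.4). In the K27M list this differed by gene class: 49 of 51 transcription factor starts of Control were held (96.1%), and 16 of 24 histone starts (66.7%, 44.7 to 84.4). Those 24 histone starts lay in 10 Control peaks, so they are not independent of one another and the interval is only rough. The 2 transcription factor starts of Control members that K27M did not hold were those of Irx5 and Nr2f1. In the other direction 77 of 109 EZHIP starts (70.6%) and 68 of 146 K27M starts (46.6%) lay in a Control peak. For K27M this again split by class, with 19 of 19 histone starts and 28 of 66 transcription factor starts (42.4%) held by Control. These lists share the Control library, so the EZHIP and K27M comparisons are not independent.

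**Figure D3:**
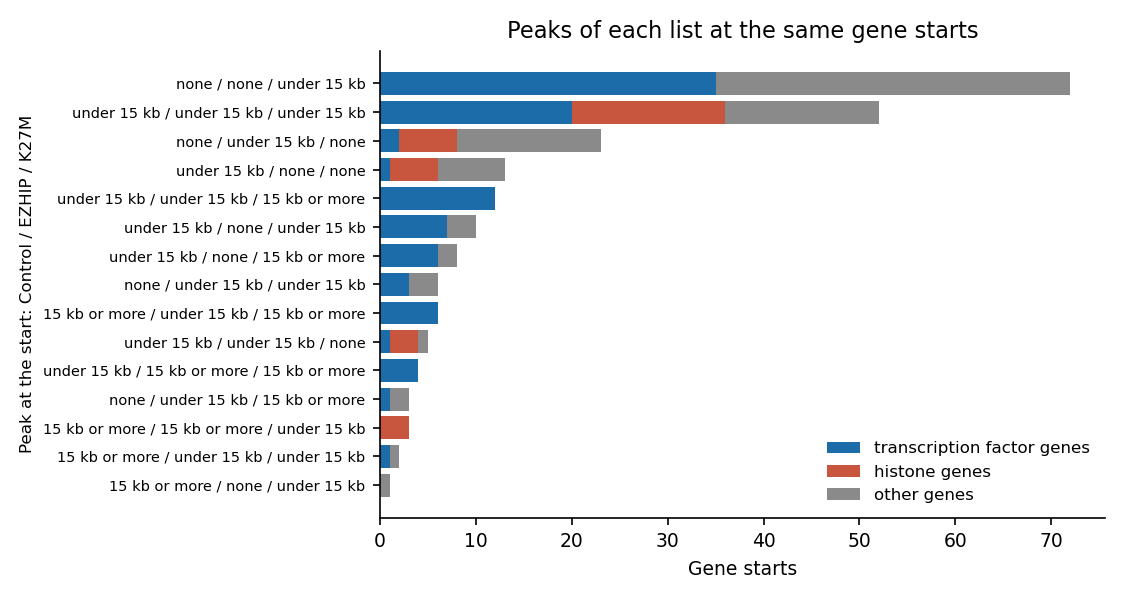
Number of gene starts (horizontal axis) with each combination of peaks in Control, EZHIP and K27M, split by gene group. The longest bars are the 72 starts in shorter K27M peaks alone, with 35 transcription factor and 0 histone starts, and the 52 starts in shorter peaks of all lists, with 20 and 16.

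A shorter peak of each list held 52 starts, and these formed a common core of 20 transcription factor starts, 16 histone starts and 16 others. At Insm1, a zinc finger gene of neuroendocrine cells, the widths were 6200, 4600 and 11000 bp in Control, EZHIP and K27M. At Pou3f3, a POU factor of the brain and kidney, they were 10000, 7800 and 14000 bp. At Sox21 they were 13400, 11400 and 14600 bp, and at Foxd3, a neural crest gene, 12600, 10200 and 14000 bp. In each of these 4 genes the EZHIP peak was the narrowest and the K27M peak the widest. Gata3, a T-cell and epithelial factor, had 13800, 10000 and 13000 bp in Control, EZHIP and K27M. The order was different at Sp9 (12600, 11800 and 10000 bp), where the K27M peak was the narrowest. Among other genes of the core, Chd7, a chromatin remodeller gene, differed little in width (4600, 5000 and 4400 bp), as did Tchh, a hair follicle gene (11400, 12600 and 11000 bp).

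A further group of 12 starts lay in shorter peaks of Control and EZHIP and in peaks of 15000 bp or more of K27M. All were transcription factor starts. They included Lhx1, Lhx4, Nkx3-2, Nkx6-1, Olig2, Olig3, Tcf21, Pdx1, Vax1, Dmrta2 and Tcfap2b. Olig2, which specifies motor neurons and oligodendrocytes, had widths of 7000, 6400 and 17600 bp in Control, EZHIP and K27M. Pdx1, the pancreatic homeobox gene, had 12400, 6800 and 16600 bp. Tcfap2b (AP-2β) had 3200, 6000 and 36200 bp, the largest difference across the limit, and Tcf21 had 13000, 4400 and 37200 bp. Both of these K27M peaks also spanned a second Control peak. The opposite pattern, a shorter peak in K27M and 15000 bp or more in Control and EZHIP, occurred at 3 starts, all of histone genes (Hist1h1a, Hist1h1c and Hist1h3a). Another 6 starts, all of transcription factor genes, had a shorter peak in EZHIP only and broad peaks in Control and K27M. At Otx2 these measured 10400 bp in EZHIP, 19200 bp in Control and 24800 bp in K27M.

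Widths were next compared wherever both lists held the same start and at least 1 of the 2 peaks was under 15000 bp, with peak pairs counted once. The K27M peak was wider than the Control peak at 51 of 73 sites and narrower at 18, with a median log2 ratio of 0.49 (95% interval 0.15 to 0.68). The EZHIP peak was wider at 18 of 64 sites and narrower at 45, with a median log2 ratio of -0.15 (-0.31 to -0.084). By class, the K27M peak was wider than the Control peak at 45 of 49 transcription factor sites (91.8%), with a median log2 ratio of 0.71. It was wider at none of 8 histone sites, with 6 narrower and 2 of equal width. The width chose these sites, and the histone sites are not independent: 2 of the 8 share 1 Control peak and 2 more are near-identical copies, so the class difference is a description with no test. With the widths of all overlapping peaks summed, the medians were 0.708 at transcription factor sites and -0.163 at the 7 histone sites then left. At sites where both peaks were under 15000 bp the K27M median over all genes was 0.145 and that of transcription factor genes 0.587. In EZHIP the classes were alike in direction, with 12 of 43 transcription factor sites and 2 of 9 histone sites wider than Control.

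The gain at transcription factor sites in K27M was on both sides of the start. The median upstream edge lay 1800 bp further out and the median downstream edge 2800 bp further out, and 40 of 49 peaks were longer on both sides. The largest ratio was at Tcfap2b, 11.3 times the Control width, where the K27M peak began 1600 bp further upstream and ended 31400 bp further downstream. That interval held a second Control peak away from the start, and against both Control peaks together (5800 bp) the ratio was 6.24. Tcf21 and Esx1 were alike, with 2 Control peaks inside 1 K27M peak and ratios of 2.04 and 1.71 against their sum. Gbx2, a hindbrain boundary gene, went from 2400 bp in Control and 3200 bp in EZHIP to 8800 bp in K27M. Tal1, a blood stem cell factor, had 4800, 9600 and 12400 bp. The 4 transcription factor sites that were narrower in K27M were Six6, Sp9, Osr2 and Gata3. At the 43 transcription factor sites of EZHIP the median shift was -400 bp at each edge, where 1 bin is 200 bp. In EZHIP the largest decreases at transcription factor sites were at Tcf21 (0.338 times the Control width), Otx2 (0.542 times) and Pdx1 (0.548 times), and the largest increases at Tal1 (log2 ratio 1.00) and Tcfap2b (log2 ratio 0.91).

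**Figure D4:**
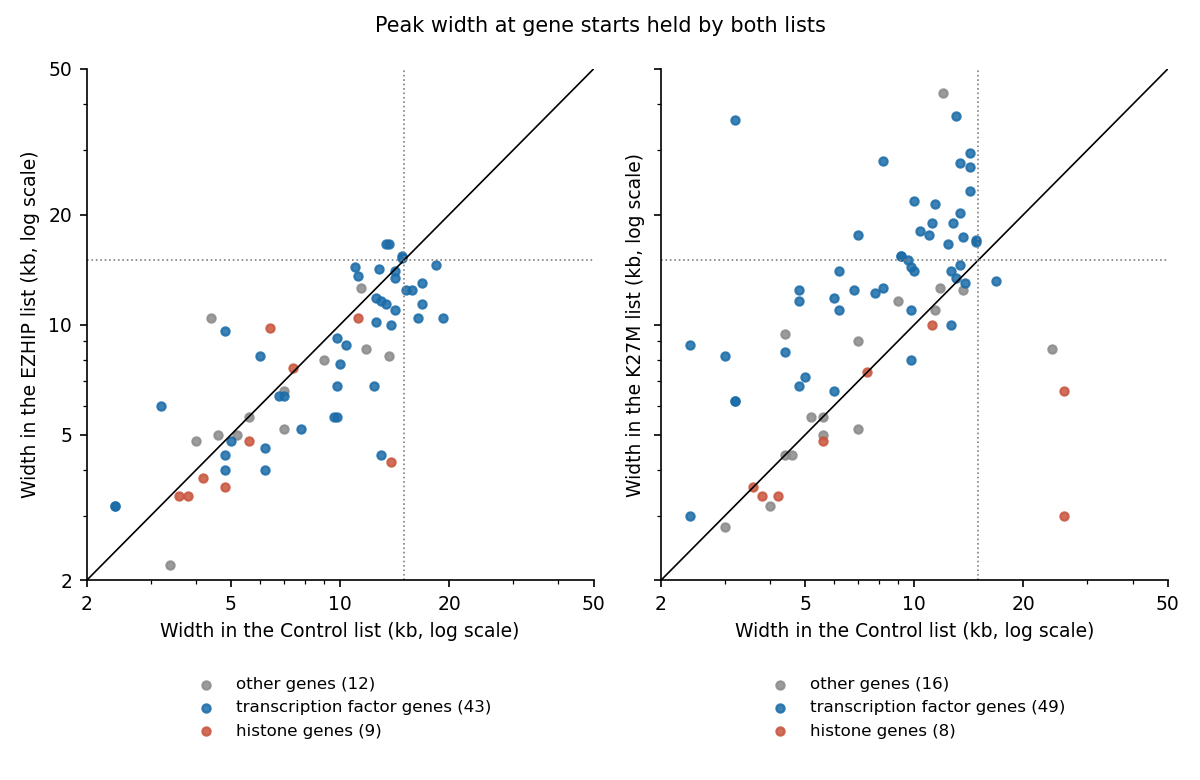
Width of the Control peak against the EZHIP peak (left) and the K27M peak (right) at starts held by both lists, in kb on log axes, 1 point per pair of peaks. The solid line marks equal width and dotted lines the 15 kb limit. Transcription factor sites lay above the line in 45 of 49 cases for K27M and in 12 of 43 for EZHIP, and no histone site lay above it for K27M.

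At the histone gene clusters, shorter peaks of one list faced broad peaks of another. The large Hist1 cluster on chromosome 13 has 55 annotated starts, of which Control peaks of any width held 28, EZHIP peaks 31 and K27M peaks 13. The summed width of the peaks that held them was 80200, 90400 and 24800 bp in Control, EZHIP and K27M. The Hist2 cluster on chromosome 3 differed much less, with the same 6 of 9 starts held and summed widths of 18600, 18000 and 17400 bp. At the Hist3 cluster on chromosome 11, Control held Hist3h2ba, EZHIP held Hist3h2ba and Hist3h2a, and K27M held neither. Within Hist1, a 25800 bp peak at chr13:23830601-23856400 in both Control and EZHIP reached from Hist1h1c to Hist1h1a. In K27M the same interval held a 6600 bp peak that began at the same base upstream of Hist1h1c, and a 3000 bp peak over Hist1h3a and Hist1h1a. Hist1h1b kept a peak of its own in all lists (4200, 3800 and 3400 bp), and so did the trio Hist1h4k, Hist1h2ak and Hist1h2bn (5600, 4800 and 4800 bp).

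Many histone genes are arranged head to head, and close pairs can share a promoter. Between the starts of Hist1h2ak and Hist1h2bn lay 215 bp, between those of Hist1h2bf and Hist1h2ad 184 bp, and between those of Hist1h2ag and Hist1h2bj 264 bp. These stretches held 3, 4 and 5 copies of the CCAAT box (CCAAT on either strand), as the Hist1h2bn sequence above shows in part. Hist1h2bq and Hist1h2ao, and Hist1h2ap and Hist1h2br, lay 167 bp apart with 2 copies each. Other head-to-head pairs lay further apart, namely Hist1h3a and Hist1h1a (1281 bp), Hist2h2aa2 and Hist2h2aa1 (5244 bp), and Hist2h4 and Hist2h3b (5342 bp). In the 300 bp upstream of the start, a CCAAT box occurred in 29 of 33 histone starts in members (87.9%, 95% interval 71.8 to 96.6), in 19 of 23 histone cluster starts in no peak (82.6%, 61.2 to 95) and in 39.0% of all annotated starts. The first 2 intervals overlapped. Each start of a head-to-head pair was counted, although the 2 share much of the searched sequence, so the starts are not independent and these intervals are only rough. The TATA box (TATAAA on either strand) occurred in 17 of 33 histone starts in members, in 11 of the 23 in no peak and in 14.6% of all starts. The octamer (ATGCAAAT on either strand) occurred in 3 of 33 histone starts in members (9.09%, 1.92 to 24.3). It occurred in 8 of the 23 in no peak (34.8%, 16.4 to 57.3), in 5% of the 220 member starts and in 1.83% of all starts. Transcription factor starts in members resembled transcription factor starts in general, with a CCAAT box in 40.4% against 48.3%, a TATA box in 11.1% against 12.9%, and a GC box (GGGCGG on either strand) in 52.5% against 52.9%. Over all members the GC box occurred in 59.5% of starts and in 40.9% of all annotated starts. The CArG box, the serum response factor motif, occurred upstream of 2 of 220 member starts (0.909%) and of 1.62% of all annotated starts. None of these matches is evidence of binding.

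K27M had the most starts of its own, 72 of its 146 member starts (70 symbols). They lay in 67 peaks that no peak of Control or EZHIP shared at the start. K27M peaks of any width also held more starts in general, 1.19% of protein-coding starts against 0.903% in Control and 0.894% in EZHIP. Transcription factor genes accounted for 35 of the 72 (48.6%), near their 45.2% of all K27M member starts. Histone genes accounted for 0, against 13.0% of all K27M member starts. The transcription factor starts spread over the families. The 7 bHLH starts were Neurog1 (11400 bp), Atoh1 (9200 bp), Neurod1 (9800 bp), Neurod2 (12200 bp), Ptf1a (12400 bp), Hand2 (9600 bp) and Olig1 (4800 bp). The largest homeobox class here, with 9 starts, held Gsx2 (14200 bp, 2 records), Onecut3 (13200 bp), Emx1 (11800 bp), Barhl1 (8800 bp), Gsx1 (7600 bp), Cux2 (6800 bp), and Gbx1 and Satb1 (5600 bp each). The zinc finger starts were Fezf2 (13000 bp), Prdm8 (8800 bp), Sp5 (7000 bp), Prdm6 (6000 bp), Ovol2 (3400 bp) and Prdm14 (2600 bp). The other 37 starts were of mixed function. They were 6 of receptors and transporters (Calcr, Ccr9, Gpr50, Slc30a3, Slc32a1 and Slc6a20a), 4 of signalling genes (Npy, Wnt3, Robo3 and Aldh1a2), 3 of predicted genes and 24 of no class. Those 24 ranged from Pfdn4, a prefoldin subunit (2200 bp), to Dock3, a guanine nucleotide exchange factor (13400 bp), and included Cbln1, a synaptic organizer (7200 bp), Duox2 and Duoxa2, a dual oxidase and its maturation factor (4000 bp), Rbm20, a splicing factor (8000 bp), Irs4, an insulin receptor substrate (11600 bp), and Srd5a2, a steroid reductase (3000 bp). Fev and Rfx4 among them encode transcription factors of families outside the lists. These names were chosen after the values had been seen, and no theme among them was tested. Of the 67 peaks, 18 overlapped a peak of another list that stopped short of the start. A CpG island window was present in 64 of the 67, close to the share of all K27M members given above.

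EZHIP alone held 23 of its 109 member starts, in 18 peaks, and Control alone 13 of its 104, in 9 peaks. The EZHIP set had 2 transcription factor genes, Lmx1b, a limb and midbrain homeobox gene (12400 bp), and Tbx2, a T-box gene (4400 bp). It also had 6 histone starts, Wif1, a secreted Wnt inhibitor (5600 bp), Ocln, the tight junction gene occludin (3600 bp), and Igf2bp1, an RNA-binding protein gene (7000 bp) whose start lay 53 bp from the downstream edge. All 18 peaks had a CpG island window, and 6 of them overlapped a peak of another list that did not reach the start held by EZHIP alone. The Control set had 1 transcription factor start, Irx5 (12000 bp), 5 histone starts and the immediate early and stress genes Junb, Ddit3 and Ier3. Of these 9 peaks, 6 had an island window, and 4 overlapped a peak of another list that did not reach the start. The peaks at Ier3 and Hist1h1e were 1200 bp wide, below the narrowest peak of at least 1 other list (2200 bp). Their absence from such a list is therefore a weak observation.

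A few members lay in sequence present in more than 1 copy, where a read cannot be placed with certainty. At least 50% of the sampled 32-mers occurred more than once in the genome in 4 Control, 6 EZHIP and 5 K27M members, or 4.94%, 7.06% and 4.13%. Peaks under the same width limit without a start were multi-copy in 29.2%, 15.3% and 14.6%. The multi-copy members included the peak over the predicted genes Gm10801 and Gm10800, which measured 5600 bp in all lists, the Dux locus (13600, 8200 and 12400 bp) and 2 near-identical histone trios. Those trios, Hist1h2bq, Hist1h2ao and Hist1h4m (3600, 3400 and 3600 bp) and Hist1h4n, Hist1h2ap and Hist1h2br (3800, 3400 and 3400 bp), cannot be told apart with certainty.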

How the data were processed

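CBX2 ChIP-Seq was analysed in 3 of the 5 libraries in the labels (Control, EZHIP and K27M), for which the deposited files held peak lists. Per the labels and the methods, chromatin of crosslinked MEFs was digested with MNase to mononucleosomes and precipitated with an antibody against CBX2. The authors aligned reads with Bowtie 1.0.0 to mm9 and a reference genome and called broad peaks per library with MOSAiCS-HMM. Whether an input or a scaling between libraries entered the calls is not given in the sources used here, and a default alignment places a read with several matches at 1 of them, which can add peaks in repeated sequence. The deposited values are chromosome, start and end, with no count or score, so depth is unknown.

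Each peak was a whole number of 200 bp bins and lay within its NCBIM37 chromosome. Positions are 1-based on mm9 and genes come from GENCODE vM1 (22367 protein-coding gene records at 22339 start positions). Peaks under 15000 bp that contained such a start were members. Starts were grouped by symbol patterns. The members and gene lists were chosen with earlier results of these data known, and the pattern Tcfap2 (the older symbol of Tfap2) was added once the files had been seen. Shares carry exact Clopper-Pearson 95% intervals and medians binomial 95% intervals, for counting error only. Peaks do not stand for replicates, so p-values are not given. Genes named in the text were those with the widest peaks per class, list and combination of lists, those nearest the width limit, the peak centre and the edges, those with extreme width ratios, the narrowest peaks and the peaks with the most starts. Some items are not reported here. Other names, among them several of the K27M starts, Actb and Egr1, were chosen after their values were seen. Motifs were searched on both strands in the 300 bp upstream of each start, with 7 motifs in all, of which only those described are printed. The membership, position and ratio steps were tested on simulated data. Python 3.11.15, numpy 2.4.6, scipy 1.17.1 and matplotlib 3.10.9 were used.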

Additional observations from a re-analysis of the deposited data

Results flagged for a closer look

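The direction of the width difference from Control was opposite in EZHIP and K27M at the starts held by both lists of a pair. The median log2 ratio of widths was -0.152 for EZHIP over Control and 0.485 for K27M over Control. The width chose these sites, so this is a description. In EZHIP the median shift was -200 bp at each edge, the size of 1 bin. In K27M it was 800 bp upstream and 1000 bp downstream. At transcription factor genes it was -0.233 for EZHIP and 0.708 for K27M. With 1 library in each list the difference between EZHIP and K27M was not tested. Groups of 1 library are too small to look for outlying samples.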

How the results depend on the processing

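Values were recomputed under 18 alternatives, each value under those that bear on it. The 2 without histone genes and with the summed width of all overlapping peaks were added after the lists had been seen. Of 469 values, 428 stayed within the interval of the reported value (or within 1.5 times for a count), 40 moved and 1 changed sign. No paired analysis was possible because there was only 1 library for each condition, and no library could be left out. With a limit of 10000 bp, Control had 51 members, the median widths were 4800, 5200 and 5600 bp in Control, EZHIP and K27M, transcription factor genes took 31.6% of starts in EZHIP and 36.7% in K27M, 6 starts were in Control alone, and EZHIP held 33.7% of the K27M starts. With a limit of 20000 bp, the medians became 10000 bp (Control) and 8900 bp (K27M). With a minimum of 5000 bp, they were 10400, 8600 and 9300 bp, 15 starts were in EZHIP alone, transcription factor genes took 54.8% of K27M starts, and the median log2 ratio at the 3 histone sites left in EZHIP changed sign to 0.0385. With peaks closer than 10000 bp joined, 8 starts were in Control alone and K27M held 89.5% of Control starts. When the other list had to have a shorter peak too, K27M held 59.6% of Control and 55% of EZHIP starts, and 25 starts were in Control alone. With overlap of peaks in place of starts, 1 bp gave 81.2% of EZHIP members shared with Control, and 50% of both peaks gave 66.7% of Control and 55.3% of EZHIP members shared with K27M and 37.2% of K27M members shared with Control. With both peaks under the limit, the median log2 ratio of K27M over Control was 0.145. A window of 200 bp gave islands in 98.3% of K27M members, and removal of multi-copy peaks gave 98.7% in EZHIP. Without histone genes, transcription factor genes took 63.8% of starts in Control and 54.8% in EZHIP, 8 starts were in Control alone, and EZHIP held 34.6% of the K27M starts. The sign of the median ratio at transcription factor genes did not change under any alternative tried, in either list. All alternatives used the same peak lists, 1 library each, so a stable sign does not replace a replicate. A peak of low enrichment that failed the caller cannot be told apart from no peak at the unknown depth of these libraries.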
